A study of Mus musculus with 6 samples.

Results

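The 48 genes described here encode the machinery that brings a new protein into the endoplasmic reticulum (ER), removes its signal peptide and builds its N-linked sugars. They were listed by gene name in 9 groups, and the list was chosen with earlier results of these data known. All 48 were found among the 24959 genes of the count table. All 48 had enough reads to be tested, as did 15930 genes in all. RNA was sequenced from 6 libraries labelled as mouse dental epithelial cells at postnatal day 0. Of these, 3 were labelled cKO with the genotype PKM knockout and 3 were labelled control with the genotype WT. Pkm encodes the M-type pyruvate kinases, which make pyruvate at the end of glycolysis. The titles call the 3 libraries of each group biological replicates. The Cre driver, the deleted exon, the strain and the number of animals behind a library are not given in the sources used. A p-value therefore covers only how these samples differ among themselves.

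A protein bound for secretion is caught on the ribosome by the signal recognition particle (SRP), which docks at its receptor on the ER membrane, and the chain then passes through the Sec61 channel. The translocon-associated protein complex (TRAP) sits beside the channel, signal peptidase cuts off the leader, and oligosaccharyltransferase (OST) moves a sugar tree assembled on dolichol onto asparagine. Glucosidases and mannosidases of the ER and Golgi then trim the tree and Golgi transferases rebuild it. Ameloblasts, the enamel-secreting cells of the dental epithelium, send large amounts of matrix protein along this route.

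Pkm stood at 309, 395 and 350 CPM (read counts adjusted for library size) in the Pkm cKO libraries, against 1281, 1185 and 1049 CPM in the controls, and its log2 fold change was -1.74 (SE 0.159, edgeR adjusted p 0.0109). Total counts were 30588350 to 39085792 in Pkm cKO libraries and 38130829 to 39415700 in controls. Markers of other tissues differed between the libraries. The 5 tested skeletal muscle genes summed to 2589 CPM in Pkm cKO replicate 3, to 59.9 and 12.5 CPM in the other Pkm cKO libraries, and to 0.803 to 1.77 CPM in controls, where Myh3 had a library with 0 reads. The 9 macrophage genes were all above 0 in log2 fold change, C1qc among them passing the test, and summed to 115 to 193 CPM in Pkm cKO libraries and 61.4 to 64.8 CPM in controls. Of 11 mesenchyme genes 9 were above 0 (median log2 fold change 0.82), and 7 were higher without overlap, against 11.2% of all tested genes. The mean log2 deviation of the mesenchyme genes from the control mean was 1.03, 0.31 and 0.95 in Pkm cKO replicates 1 to 3 and -0.05 to 0.07 in controls. Their sums overlapped, at 18416 to 39808 CPM in Pkm cKO libraries and 19474 to 31173 CPM in controls, and were mostly Col1a1 and Col1a2, the 2 genes below 0. The 4 tested erythroid genes were below 0, 3 of them past the test (247 to 325 CPM in Pkm cKO libraries against 526 to 742 CPM in controls). The endothelial list (309 to 565 CPM in Pkm cKO libraries, 291 to 361 CPM in controls) and the odontoblast list (428 to 3829 CPM in Pkm cKO libraries, 2618 to 5560 CPM in controls) overlapped.

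The dental epithelium and enamel lists also stood lower in Pkm cKO libraries. Of 8 dental epithelium genes 6 were below 0, and their sum was 10387, 11858 and 9864 CPM in Pkm cKO replicates 1 to 3 and 15971, 13660 and 14463 CPM in control replicates 1 to 3. Cdh1, which encodes E-cadherin, had a log2 fold change of -0.78 (SE 0.149, edgeR adjusted p 0.0538). All 9 enamel genes were below 0, 1 of them past the test, with sums of 7022, 2025 and 981 CPM in Pkm cKO libraries, against 27532, 23822 and 12201 CPM in controls. The 48 genes summed to 6218, 6080 and 5241 CPM in the Pkm cKO libraries and to 8625, 7273 and 7766 CPM in the controls, so the groups did not overlap. Divided by the sum of the dental epithelium genes, a scale chosen after the data were seen, these were 0.599, 0.513 and 0.531 in Pkm cKO libraries and 0.540, 0.532 and 0.537 in controls, and on this scale the groups overlapped. In these bulk samples, fewer epithelial or secreting cells and less RNA of these genes per cell cannot be told apart, and the part of the marker differences in the results below was not tested.

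Most of the 48 genes stood modestly lower in Pkm cKO libraries, and 1 passed the test. Of the 48, 44 had a log2 fold change below 0, where 49.2% of all tested genes did. The median was -0.35, that is 21.7% lower, beside 0.01 for all tested genes, and the values ran from -0.87 for Mgat5 to 0.62 for Dpm1. Mgat5 alone fell at an adjusted p under 0.05, while 0.207% of all tested genes were called lower and 0.552% in either direction (edgeR quasi-likelihood test, Benjamini-Hochberg over all tested genes). The groups did not overlap for 26 members that were lower in Pkm cKO libraries and for 1 that was higher, against 12.2% and 11.2% of all tested genes. The higher one was Dpm1, a gene with few reads. At an unadjusted p under 0.05, 19 members were lower and 0 higher, against 7.9% and 9.57% of all tested genes. No fold change reached 2-fold. DESeq2, run on the same counts, called 7 members, all lower (Mgat5, Ssr2, Rpn2, Ddost, Sec11c, Srp14 and Ssr3), where it called 2.7% of all tested genes lower. Without Pkm cKO replicate 3, which held the muscle transcripts, the median was -0.26, 40 members were below 0, and 24 did not overlap and were lower, against 18.4% of all genes tested then.

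**Figure D1:**
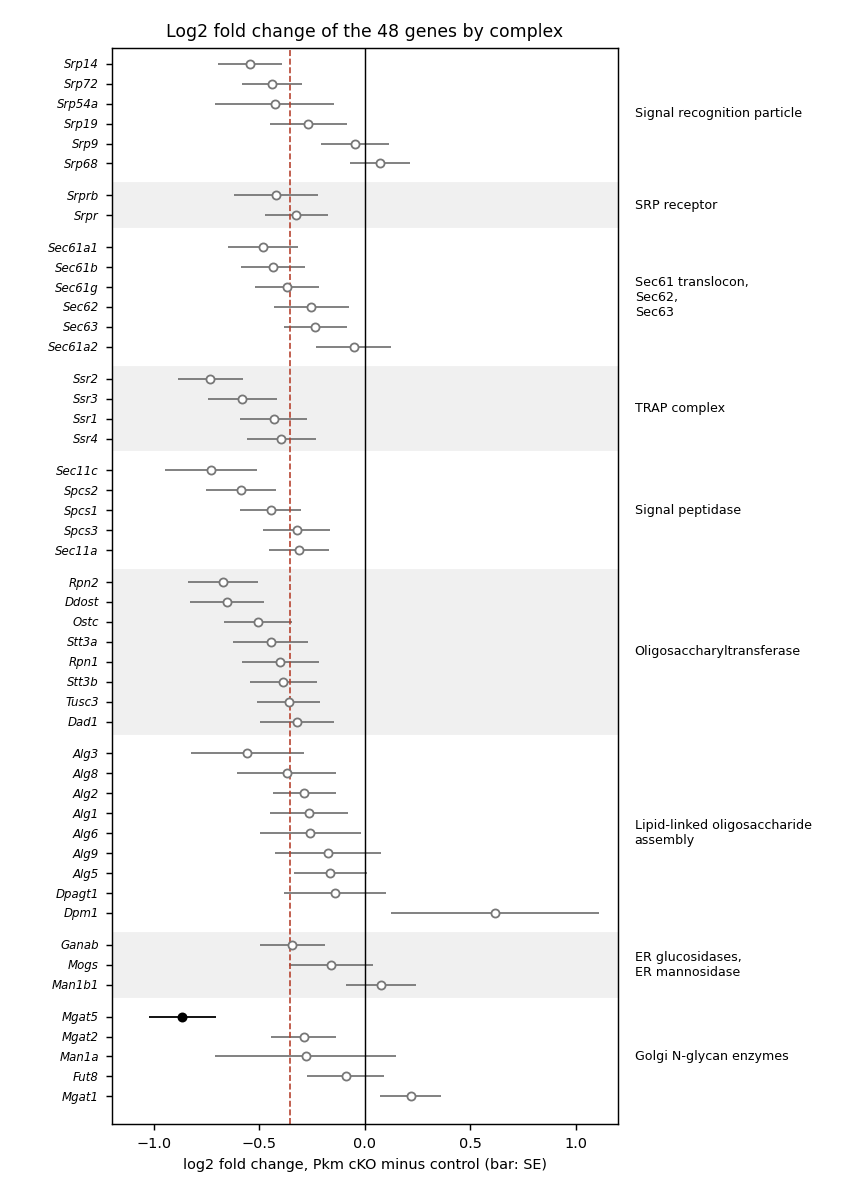
Log2 fold changes of the 48 genes, Pkm cKO minus control, with SE as bars, grouped by complex (n = 3 libraries each). The filled point is Mgat5, with an adjusted p under 0.05. The dashed line is the members' median of -0.35, and the points of the 5 complexes from the SRP receptor to OST all lie below 0.

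By complex, the median log2 fold change was lowest in TRAP (-0.51), followed by signal peptidase (-0.45), OST (-0.42), the SRP receptor (-0.37), SRP (-0.35) and the translocon (-0.31). It was -0.28 in the Golgi enzymes, -0.26 in lipid-linked oligosaccharide assembly and -0.16 in the ER trimming enzymes. When the log2 CPM of a complex's members was averaged in each library, the Pkm cKO libraries lay below every control in the first 6 of these and overlapped the controls in the other 3. TRAP deviated from the control mean by -0.43, -0.60 and -0.60 in Pkm cKO replicates 1 to 3, and in controls by -0.12 to 0.10. Without Pkm cKO replicate 3 the median was 0.04 in ER trimming, -0.04 in the Golgi enzymes, -0.14 in lipid-linked oligosaccharide assembly, -0.23 in the SRP receptor and -0.56 to -0.29 in the other 5, and without Pkm cKO replicate 2 it was -0.035 in the Golgi enzymes. The differences between complexes were not tested.

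**Figure D2:**
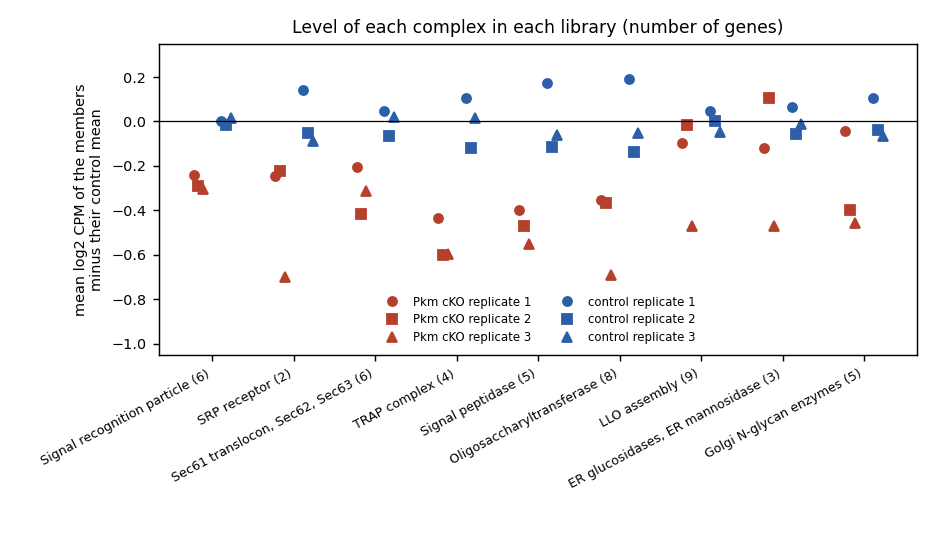
Mean log2 CPM of the members of each complex in each library, minus the mean of the controls. Red points are the 3 Pkm cKO libraries and blue points the 3 controls, with the number of genes in brackets. The groups separate from SRP to OST and overlap in the last 3 groups, where Pkm cKO replicate 3 was the lowest library.

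Among the 6 SRP proteins, the one with the lowest p was Srp14, which with Srp9 forms the pair that pauses translation. Srp14 had 64.8, 58.2 and 50.4 CPM in Pkm cKO libraries, against 82.2, 82.0 and 88.5 CPM in controls (log2 fold change -0.54, SE 0.150, edgeR adjusted p 0.115). Its partner Srp9 stood at 59.4 ± 1.63 CPM in Pkm cKO libraries and 61.2 ± 10.4 CPM in controls (SD, n = 3 each), with overlapping groups. The same contrast appeared in the other heterodimer of the particle. Srp72 had 147, 116 and 135 CPM in Pkm cKO libraries and 183, 180 and 176 CPM in controls (log2 fold change -0.44, SE 0.143), without overlap, whereas Srp68 had 114, 133 and 111 CPM in Pkm cKO libraries and 121, 111 and 109 CPM in controls (0.07, SE 0.142). Whether the partners differ from each other was not tested. Srp19 (-0.27, SE 0.183) and the signal-binding GTPase gene Srp54a (-0.43, SE 0.281) overlapped between groups. The level of Srp54a, at 4.49 to 6.63 CPM in Pkm cKO libraries and 6.02 to 8.52 CPM in controls, is uncertain, because mouse Srp54a, Srp54b and Srp54c are near-identical copies and reads may have been divided between them.

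Both subunits of the SRP receptor stood lower without overlap, as did 12.2% of all tested genes, and neither subunit passed the test. Srpr, the GTPase subunit that binds SRP, had 224, 198 and 174 CPM in Pkm cKO libraries and 270, 240 and 237 CPM in controls (log2 fold change -0.32, SE 0.150, edgeR adjusted p 0.298). Srprb, its membrane anchor, had 94.1, 110 and 64.5 CPM in Pkm cKO libraries and 134, 115 and 111 CPM in controls, and the margin rested on Pkm cKO replicate 2 lying just under control replicate 3. In GENCODE M21, 888 bases of Srprb exons overlap the gene Gm20425 on the same strand. Reads shared by overlapping genes may not have been counted, so the level of Srprb, its fold change and the receptor median are uncertain.

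In the translocon, the 3 subunits of the main channel stood lower without overlap, as did 12.2% of all tested genes. Sec61a1, the pore subunit, had 519, 535 and 416 CPM in Pkm cKO libraries, against 774, 587 and 692 CPM in controls (log2 fold change -0.48, SE 0.165, edgeR adjusted p 0.181). The small subunits Sec61b (-0.43, SE 0.151) and Sec61g (-0.37, SE 0.151) also had groups that did not overlap. The alternative pore gene Sec61a2 had 62.6, 46.3 and 70.5 CPM in Pkm cKO libraries and 58.7, 65.0 and 62.2 CPM in controls, so the groups overlapped (log2 fold change -0.05, SE 0.177). The log2 ratio of Sec61a2 to Sec61a1 averaged -3.05 ± 0.485 in Pkm cKO libraries and -3.46 ± 0.273 in controls (SD, n = 3 each). This difference of 0.41 had an exact two-sided permutation p of 0.3, where 0.1 is the smallest that 3 against 3 allows. Sec62 and Sec63, which help post-translational entry and recruit the ER chaperone BiP, stood at -0.25 (SE 0.178) and -0.23 (SE 0.148), with overlapping groups.

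All 4 TRAP genes stood lower in every Pkm cKO library than in any control, as did 12.2% of all tested genes. Ssr2, the beta subunit, had 291, 283 and 229 CPM in Pkm cKO libraries and 488, 409 and 438 CPM in controls, 39.8% lower (log2 fold change -0.73, SE 0.154, edgeR adjusted p 0.0710). Ssr3, the gamma subunit that reaches the ribosome, had 401, 283 and 353 CPM in Pkm cKO libraries and 554, 470 and 526 CPM in controls (-0.58, SE 0.165, adjusted p 0.126). Ssr1 (alpha) and Ssr4 (delta) stood at -0.43 (SE 0.160) and -0.39 (SE 0.162). Ssr2 passed in edgeR with no filter beyond 1 read (0.0166) and without Pkm cKO replicate 1 (0.0402).

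The 5 signal peptidase genes were likewise lower without overlap, where 12.2% of all tested genes were, and none of the 5 passed. Spcs2, an accessory subunit, had 134, 122 and 101 CPM in Pkm cKO libraries and 208, 160 and 167 CPM in controls (log2 fold change -0.58, SE 0.166, edgeR adjusted p 0.124). The other accessory genes Spcs1 (-0.45, SE 0.145) and Spcs3 (-0.32, SE 0.159) were less far apart. The enzyme has alternative catalytic subunits. Sec11c had 10.8, 11.6 and 11.0 CPM in Pkm cKO libraries and 23.1, 16.2 and 16.1 CPM in controls (-0.73, SE 0.218, adjusted p 0.138), while Sec11a had 84.6, 83.7 and 70.3 CPM in Pkm cKO libraries and 99.8, 95.3 and 101 CPM in controls (-0.31, SE 0.142). The log2 ratio of Sec11c to Sec11a was -2.96, -2.85 and -2.68 in Pkm cKO libraries and -2.11, -2.56 and -2.65 in controls. The ratios did not overlap, and the exact permutation p was 0.1, the smallest possible (0.4 after Benjamini-Hochberg adjustment over 4 ratios).

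OST had 8 members, all below 0, of which 6 were lower without overlap, against 12.2% of all tested genes. Rpn2, which encodes ribophorin II, had 461, 472 and 353 CPM in Pkm cKO libraries and 773, 636 and 639 CPM in controls, 37.2% lower (log2 fold change -0.67, SE 0.166, edgeR adjusted p 0.0970). Ddost, a scaffold subunit named here after its values were seen, had 436, 450 and 311 CPM in Pkm cKO libraries and 686, 566 and 629 CPM in controls (-0.65, SE 0.175, adjusted p 0.111). In both genes Pkm cKO replicate 3 was lowest and control replicate 1 highest. The catalytic subunits set up OST forms that act during or after translocation. Stt3a, of the form bound to the translocon, had 245, 221 and 185 CPM in Pkm cKO libraries and 359, 273 and 255 CPM in controls (-0.45, SE 0.178). Stt3b, of the form that glycosylates skipped sites, had 191, 173 and 158 CPM in Pkm cKO libraries and 264, 223 and 196 CPM in controls (-0.39, SE 0.159). Their log2 ratio, Stt3b to Stt3a, differed by 0.06 between the groups (-0.31 ± 0.0787 in Pkm cKO libraries and -0.37 ± 0.0772 in controls, exact permutation p 0.4). Ostc, which joins the Stt3a form to the translocon, stood at -0.51 (SE 0.162), and the shared subunits Rpn1 and Dad1 at -0.40 (SE 0.182) and -0.32 (SE 0.176), with overlapping groups. Tusc3, an oxidoreductase subunit of the Stt3b form, had 124, 121 and 96.4 CPM in Pkm cKO libraries and 151, 139 and 148 CPM in controls. Its alternative Magt1, not one of the 48, had 36.6, 40.7 and 40.5 CPM in Pkm cKO libraries and 70.4, 55.2 and 59.2 CPM in controls (-0.65, SE 0.159, adjusted p 0.0949). The log2 ratio of Tusc3 to Magt1 was 1.52 ± 0.256 in Pkm cKO libraries and 1.25 ± 0.132 in controls, with overlap (exact permutation p 0.3).

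**Figure D3:**
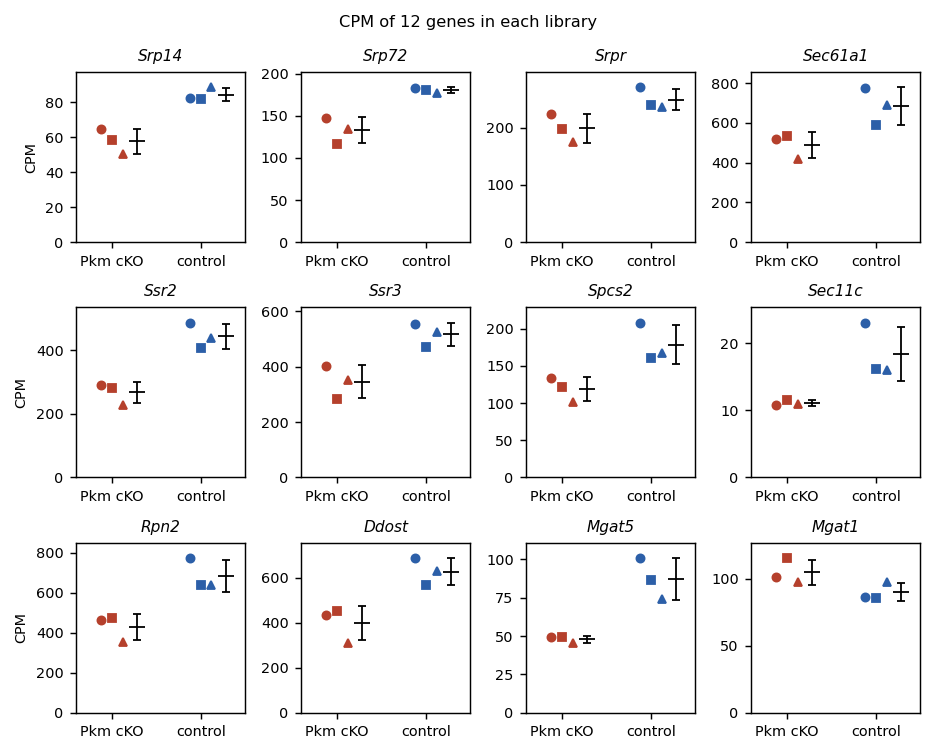
CPM of 12 of the genes in each library, Pkm cKO in red and control in blue, with the mean and SD in black (n = 3 each) and axes starting at 0. In all panels but that of Mgat1, the Pkm cKO libraries lie below the controls. In the Mgat1 panel the groups overlap. The 12 do not represent the 48, of which 26 were lower without overlap. None is from lipid-linked oligosaccharide assembly or ER trimming, and Srp9 and Srp68 are not shown.

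Per kilobase of exon, TRAP, OST and Sec61 subunits were the most abundant of the 48, with lengths taken from GENCODE M21. Mean levels of Ssr2 were 207 CPM per kb in Pkm cKO libraries and 344 CPM per kb in controls. In Pkm cKO libraries Ddost, Rpn2 and Sec61a1 had 188, 153 and 154 CPM per kb, and in controls 296, 243 and 216 CPM per kb. The catalytic Stt3a (37.0 CPM per kb in Pkm cKO libraries, 50.4 CPM per kb in controls) and the pore alternative Sec61a2 (23.6 CPM per kb in Pkm cKO libraries, 24.5 CPM per kb in controls) were lower. Among the genes that build the dolichol-linked sugar, Alg5 was the most abundant, at 27.5 CPM per kb in Pkm cKO libraries and 30.8 CPM per kb in controls, and Alg3 had 7.55 CPM per kb in Pkm cKO libraries and 11.1 CPM per kb in controls. These levels are approximate, since the annotation behind the counts is not given in the sources used.

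The 9 genes of dolichol-linked sugar assembly showed smaller differences, and 7 of them overlapped between groups. Alg3, a mannosyltransferase and the lowest by p, had 11.4, 16.5 and 8.64 CPM in Pkm cKO libraries and 21.5, 16.7 and 15.5 CPM in controls (log2 fold change -0.56, SE 0.268, edgeR adjusted p 0.317). Alg2, also a mannosyltransferase and the one with the most reads, had 74.6, 68.3 and 64.1 CPM in Pkm cKO libraries and 94.2, 74.5 and 83.6 CPM in controls (-0.29, SE 0.150). Dpagt1, which starts the sugar tree, stood at -0.14 (SE 0.241), and the mannosyltransferase genes Alg1 and Alg9 at -0.26 (SE 0.184) and -0.17 (SE 0.251). The glucosyltransferase genes Alg5, Alg6 and Alg8 stood at -0.16, -0.26 and -0.37. Alg6 was lower without overlap by a narrow margin, 8.01 CPM in Pkm cKO replicate 1 against 8.06 CPM in control replicate 1. Dpm1, which makes dolichol-phosphate-mannose, had 36, 26 and 32 reads in Pkm cKO libraries and 16, 29 and 22 reads in controls. In CPM it was higher without overlap, but only by 0.756 in Pkm cKO replicate 2 against 0.751 in control replicate 2. The Dpm1 partners Dpm2 and Dpm3, which are not among the 48, had means of 34.3 and 23.7 CPM in Pkm cKO libraries, against 40.7 and 27.6 CPM in controls. In GENCODE M21, 895 bases of Dpm1 exons overlap the gene Gm20716 on the same strand, and reads shared by overlapping genes may not have been counted, so the level and the fold change of Dpm1 (0.62, SE 0.493) are uncertain.

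The enzymes that trim and rebuild the transferred sugar had log2 fold changes on both sides of 0. Ganab, the catalytic subunit of glucosidase II, had 299, 367 and 278 CPM in Pkm cKO libraries and 430, 376 and 393 CPM in controls (log2 fold change -0.34, SE 0.155, edgeR adjusted p 0.287), without overlap. Glucosidase I (Mogs, -0.16, SE 0.197) and the ER mannosidase gene Man1b1 (0.08, SE 0.164) overlapped. In the Golgi, Mgat1, which starts the hybrid and complex branches, had 101, 116 and 97.7 CPM in Pkm cKO libraries and 86.6, 86.1 and 97.8 CPM in controls (0.22, SE 0.143). Mgat2, the next branching enzyme, stood at -0.29 (SE 0.155) and the core fucosyltransferase gene Fut8 at -0.09 (SE 0.183). Man1a, a Golgi mannosidase, had 59.5, 18.9 and 22.3 CPM in Pkm cKO libraries and 47.6, 40.4 and 34.0 CPM in controls. Pkm cKO replicate 1 was thus the highest library for Man1a and replicates 2 and 3 the lowest, and without replicate 1 Man1a was called at -0.99 (edgeR adjusted p 0.0432).

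Mgat5, which adds the branch that carries poly-lactosamine chains, fell and was the 1 member past the threshold. It had 49.1, 49.2 and 45.2 CPM in Pkm cKO libraries and 101, 86.6 and 73.9 CPM in controls, 45.1% lower, with a log2 fold change of -0.87 (SE 0.158) and an edgeR adjusted p of 0.0496. The Pkm cKO libraries lay within 4 CPM of each other, and the spread was in the controls. Over 14 alternatives its log2 fold change ran from -0.97 to -0.75 and its adjusted p from 0.000511 to 0.300, with 5 of them under 0.05. An edgeR fit without any 1 control gave it 0.300, 0.229 and 0.167, without replicates 1, 2 and 3, and a fit without Pkm cKO replicate 2 or 3 gave 0.0626 and 0.0646.

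The other genes of the pathway, 83 in 7 lists, had medians from -0.48 for OST to 0.06 for the EMC and GET list. All 83 were tested and 0 passed in edgeR, although 17 were lower and 3 higher at an unadjusted p under 0.05 (7.9% and 9.57% of all tested genes), and DESeq2 called 4 (St3gal4, Magt1, Os9 and Alg12, all lower). Their median was -0.24, with 61 below 0. The 5 further OST genes were all below 0 (median -0.48). ER lectins and quality control had 11 of 12 below 0 (median -0.37), the lowest by p being Os9, which hands misfolded glycoproteins to degradation (317 ± 67.2 CPM in Pkm cKO libraries and 499 ± 46.0 CPM in controls, log2 fold change -0.65, SE 0.182, edgeR adjusted p 0.119). Of 10 translocon partners 9 were below 0 (median -0.34), with Tmco1 lowest by p (39.0 ± 6.06 CPM in Pkm cKO libraries and 53.3 ± 2.98 CPM in controls, log2 fold change -0.45, SE 0.169, edgeR adjusted p 0.212).

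Of 14 genes for dolichol and sugar assembly 12 were below 0 (median -0.25), with the mannosyltransferase gene Alg12 lowest by p (11.8, 14.5 and 9.19 CPM in Pkm cKO libraries and 24.2, 18.3 and 17.6 CPM in controls, log2 fold change -0.76, SE 0.239, edgeR adjusted p 0.151). Sugar donor synthesis had 11 of 12 below 0 (median -0.24), and its lowest p belonged to Pmm1, a phosphomannomutase gene that stood higher, at 40.9 ± 5.51 CPM in Pkm cKO libraries and 29.0 ± 6.96 CPM in controls, with overlap (0.50, SE 0.207, adjusted p 0.255). The EMC and GET list, of genes that help place multipass and tail-anchored proteins in the membrane, had 8 of 17 below 0 (median 0.06). The EMC subunit gene Emc2 was lowest by p (18.9 ± 2.64 CPM in Pkm cKO libraries and 26.6 ± 2.83 CPM in controls, -0.50, SE 0.191, edgeR adjusted p 0.226). Of the EMC genes, Emc1, Emc2, Emc3, Emc4, Emc7 and Mmgt1 were below 0, and Emc6, Emc8, Emc9 and Emc10 above. Of the other genes in this list, Get3 and Ubl4a were below 0, and Get1, Get4, Caml, Bag6 and Sgta above. Further Golgi N-glycan genes had 5 of 13 below 0 (median 0.03). Among them St3gal4, a sialyltransferase gene, had 14.9, 12.1 and 18.7 CPM in Pkm cKO libraries and 39.3, 44.0 and 26.5 CPM in controls (-1.26, SE 0.245, adjusted p 0.0563). The differences between these lists were not tested.

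**Figure D4:**
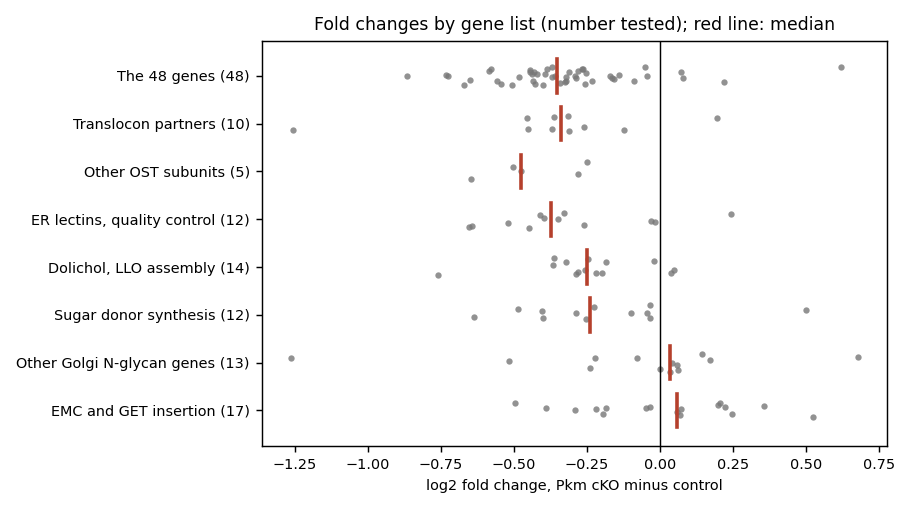
Log2 fold changes, Pkm cKO minus control, of the 48 genes and of 7 other lists of the pathway. Each point is a gene, spread vertically at random, and red lines are medians. The medians of other OST subunits (-0.48) and of the 48 genes (-0.35) lie below 0, and those of the EMC and GET list (0.06) and other Golgi genes (0.03) lie near it.

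Since many of these genes stood lower together, their promoters were read from RefSeq (GRCm38.p6, 250 bases before to 50 bases after a start site), which held 38 of the 48. Known elements of the ER stress response were searched on both strands: ERSE (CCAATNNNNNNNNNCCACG), ERSE-II (ATTGGNCCACG) and UPRE (TGACGTGG). None of the 3 was found in these windows of the 38 members, where 0.163%, 0.0732% and 1.0% of tested genes with a promoter held them. Among the other genes of the pathway, Calr, Canx and Alg12 held an ERSE and Krtcap2 an ERSE-II. These were 4 of 68 such genes with a promoter (5.88%), where 1.23% of tested genes with a promoter held any of the 3 elements. Log2 fold changes were -0.64 (SE 0.219) for Calr, whose groups overlapped, and -0.52 (SE 0.164) for Canx. They were -0.76 (SE 0.239) for Alg12 and -0.25 (SE 0.153) for Krtcap2. A link between the elements and the fold changes was not tested. Each element is printed 5′ to 3′ in its own direction, with the promoter window it came from.
Calr ERSE, in chr8:84846882-84847181, minus strand, with the element on the opposite strand: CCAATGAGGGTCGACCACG
Canx ERSE, in chr11:50325624-50325923, minus strand: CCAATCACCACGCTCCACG
Alg12 ERSE, in chr15:88819269-88819568, minus strand: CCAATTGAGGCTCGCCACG
Krtcap2 ERSE-II, in chr3:89246223-89246522, plus strand: ATTGGACCACG

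The half-site CCACG, which ERSE and ERSE-II end in and which UPRE holds on its other strand, searched on both strands, occurred in 23 of the 38 members (60.5%) and in 50.1% of tested genes with a promoter. The promoters of 2 genes are given below, Mgat5 as the 1 member past the threshold and Ddost as an abundant gene of OST. They are printed 5′ to 3′ along the strand of the gene, with capitals marking CCACG or its reverse complement.
Mgat5, chr1:127204736-127205035, plus strand: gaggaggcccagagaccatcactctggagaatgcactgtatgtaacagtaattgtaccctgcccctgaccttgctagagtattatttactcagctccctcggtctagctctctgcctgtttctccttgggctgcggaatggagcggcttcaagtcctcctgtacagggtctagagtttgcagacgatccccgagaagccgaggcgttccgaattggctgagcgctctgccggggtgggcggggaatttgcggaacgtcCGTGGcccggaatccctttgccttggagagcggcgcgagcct
Ddost, chr4:138304488-138304787, plus strand: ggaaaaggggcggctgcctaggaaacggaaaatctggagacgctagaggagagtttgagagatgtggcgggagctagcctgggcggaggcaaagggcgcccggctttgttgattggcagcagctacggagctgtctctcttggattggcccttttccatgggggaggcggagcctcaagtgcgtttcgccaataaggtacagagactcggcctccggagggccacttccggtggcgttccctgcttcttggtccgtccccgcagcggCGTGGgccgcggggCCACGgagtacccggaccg
The Ddost window holds 2 half-sites and the Mgat5 window 1. Of the 6 OST members with a promoter 5 held a half-site, while Rpn2, the OST member with the highest mean CPM, held none. A match of these letters is a description of the sequence, and binding was not measured.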

How the data were processed

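RNA sequencing libraries of 3 Pkm cKO and 3 control samples were compared. Per the labels' protocols, libraries were made from total RNA purified on RNeasy columns. The submitters' processing notes name fastp, HISAT2 and mm39. How reads were counted, with which annotation and strand setting, is not stated there. The authors deposited whole-number read counts per gene. Without a known strand setting, reads of overlapping and antisense genes cannot be told apart, and 16 of the 48 members share exon bases with another gene in GENCODE M21.

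Genes were kept by edgeR's filterByExpr, scaled by TMM and compared with the quasi-likelihood test (robust glmQLFit, edgeR 4.0.16, R 4.3.3). Two-sided p-values were adjusted by Benjamini-Hochberg over 15930 genes, with a threshold of 0.05. An SE was obtained as the size of the log2 fold change over the root of its F statistic. Total counts of 30588350 to 39415700 made counting error small for abundant genes beside a biological coefficient of variation of 0.300. Averages per complex used log2 CPM. Paralog ratios used counts plus 0.5. The smallest chi-square per gene between libraries was 28.7, so none was a duplicate.

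Members, the 7 other lists (2 genes found under another symbol) and marker lists were chosen with earlier results of these data known. Full values are given for Pkm, members past the threshold, the lowest p and highest CPM of each complex, 4 paralog pairs, and the lowest p of each other list; other genes are named for their role or position, after their values were seen. The half-site search was added after the data were seen. Alternatives were DESeq2 1.42.0, limma-voom (limma 3.58.1), other scalings and filters, no robust estimation, the replicate block and leaving out each library. The procedure was tested on simulated counts. The sequence of 1 promoter is not reported here.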

Additional observations from a re-analysis of the deposited data

How the results depend on the processing

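All members tested kept their direction under each scaling, filter and test tried (Dpm1 was not tested with a 1 CPM filter), and the members' median log2 fold change ran from -0.37 to -0.31 there and from -0.39 to -0.26 when 1 library was left out. Without Pkm cKO replicate 2, 4 members changed sign (Srp68, Sec61a2, Man1b1 and Man1a), without replicate 3 another 4 (Alg9, Dpagt1, Mogs and Fut8), and without control replicate 3 Srp9 did. None of these members was called in the fit where its sign changed. Members lower without overlap numbered 22 to 27 under other scalings, filters and tests, against 9.11% to 12.2% of all genes tested in those fits, and 24 to 35 with 1 library left out, against 14.2% to 19.9%. Those higher without overlap numbered 2 with upper-quartile scaling, against 12.9% of all genes tested. With 1 library left out they numbered 1 to 3, against 13.3% to 19.2%.

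Calls depended on the tool. In edgeR, 0 members were called with upper-quartile scaling, 0 with DESeq2's size factors and 0 without robust estimation, and in limma-voom 0, with 15, 19, 19 and 22 members at an unadjusted p under 0.05. They numbered 4 with no filter beyond 1 read, 2 (Mgat5 and Ssr2) with the replicate block, 7 with DESeq2, and 0 to 3 with 1 library left out. Other pathway genes called numbered 3 with no filter, 1 with the replicate block, 4 with DESeq2 and 0 to 2 with 1 library left out. Over all genes, 55 were called with DESeq2 size factors, 518 with no filter, 708 with the replicate block, 1118 with DESeq2, 2 with limma-voom, 2 without robust estimation, and 0 to 640 with 1 library left out. With upper-quartile scaling 57 genes were higher and 18 lower, against 55 and 33 as reported. The cause was not tested. Whether replicate numbers pair the libraries could not be settled from 3 libraries a group. Same-numbered libraries deviated from their group means with correlations of 0.23, 0.016 and 0.22, and differently numbered ones with -0.28 to 0.07. The same number was the best match for Pkm cKO replicates 1 and 3, while replicate 2 correlated best with control replicate 3 (0.024).

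By complex, the SRP median was -0.31 with upper-quartile scaling. With 1 library left out, medians ran from -0.35 to -0.24 for SRP, -0.39 to -0.22 for the translocon, -0.62 to -0.42 for TRAP, -0.54 to -0.36 for signal peptidase, -0.52 to -0.32 for OST and -0.29 to -0.035 for the Golgi enzymes, whose median was -0.035 without Pkm cKO replicate 2 and -0.04 without replicate 3. Only that of the ER trimming enzymes changed sign, running from -0.36 to 0.038, with 0.038 without Pkm cKO replicate 3. The paralog ratios kept their sign with 5 counts added and without any 1 library. Depth was lowest for Dpm1, with 16 to 36 reads a library.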
